A study of Homo sapiens with 24 samples.

Results

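Of the 2615 super-enhancers listed for WT OCI-Ly7 cells, 304 (11.6%) shared no base with any protein-coding gene. They were chosen by position alone, as the stitched regions whose hg38 coordinates (1-based, both ends included) overlapped no gene of type protein_coding in GENCODE version 44, and no value of the signal entered the choice. The other 2311 regions touched at least 1 protein-coding gene. Among these, 626 lay wholly inside a gene body without covering the transcription start site (TSS) of a protein-coding gene, taken as 1 per gene. They served as the nearest comparison, since the 304 covered no such TSS either. A TSS of a long non-coding RNA lay inside 43.8% of the 304 and 23.5% of the 626.

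OCI-Ly7 is an established line of human GCB-DLBCL, the germinal center type of diffuse large B-cell lymphoma. Its isogenic clones, each grown from 1 edited or unedited cell, were profiled by CUT&RUN, an assay that cuts and sequences the DNA next to an antibody-bound histone mark. There were 24 samples in 12 groups of 2, which combined the marks H3K27ac, H3K4me1 and H3K4me3 with the genotypes WT (CRISPR control), CREBBP-R1446C (C), KMT2D-KO (K) and both (CK). The regions described here came from the H3K27ac WT group (antibody EpiCypher 13-0045), whose 2 libraries the authors combined into 1 signal column. The other 22 samples had no value in this table, so neither the spread between libraries nor the effect of C, K or CK could be measured, and every comparison below is a description over regions without a test.

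A super-enhancer is a dense cluster of enhancers with an exceptionally high load of an active mark such as H3K27ac, the acetylation that CREBBP and EP300 place on active enhancers and promoters. In B cells such clusters are known to lie near genes that define the cell's identity. An enhancer can act on a promoter far away along the chromosome through looping of the chromatin, so a cluster in the space between genes has no target that can be read from its position alone, and flanking genes are given here as neighbours and not as targets. Much of that space is transcribed into long non-coding RNAs (lncRNAs), and the antibody gene segments of the immunoglobulin loci are annotated as classes of their own and not as protein-coding genes.

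To show what such regions hold, the central bases of the first and last constituent peak are printed for the 3 regions with the highest signal and for the 2 with the highest signal per bp, all on the plus strand of hg38. Constituents were windows of 1 fixed size, so a region begins and ends with one. Capitals mark letters that match 1 of 13 short motifs, which are spelled out with their results further on.
MAX–FUT8 region, first constituent, chr14:65135356-65135556: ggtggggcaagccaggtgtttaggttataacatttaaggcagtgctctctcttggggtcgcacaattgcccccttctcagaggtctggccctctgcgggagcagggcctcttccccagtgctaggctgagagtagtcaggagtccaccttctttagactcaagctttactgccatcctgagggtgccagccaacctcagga
MAX–FUT8 region, last constituent, chr14:65330077-65330277: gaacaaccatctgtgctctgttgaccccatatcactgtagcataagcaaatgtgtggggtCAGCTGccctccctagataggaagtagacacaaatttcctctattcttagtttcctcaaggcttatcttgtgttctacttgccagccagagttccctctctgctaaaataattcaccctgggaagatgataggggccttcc
SLITRK5–GPC5 region, first constituent, chr13:90937928-90938128: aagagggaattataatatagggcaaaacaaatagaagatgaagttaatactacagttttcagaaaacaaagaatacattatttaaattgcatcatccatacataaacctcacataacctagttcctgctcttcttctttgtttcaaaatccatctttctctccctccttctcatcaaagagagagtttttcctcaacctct
SLITRK5–GPC5 region, last constituent, chr13:91343942-91344142: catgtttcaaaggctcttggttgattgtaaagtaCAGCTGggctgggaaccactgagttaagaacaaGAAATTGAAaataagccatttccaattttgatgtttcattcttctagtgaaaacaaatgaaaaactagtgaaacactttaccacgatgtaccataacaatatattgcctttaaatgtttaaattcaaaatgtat
RNF144A–ID2 region, first constituent, chr2:8325927-8326127: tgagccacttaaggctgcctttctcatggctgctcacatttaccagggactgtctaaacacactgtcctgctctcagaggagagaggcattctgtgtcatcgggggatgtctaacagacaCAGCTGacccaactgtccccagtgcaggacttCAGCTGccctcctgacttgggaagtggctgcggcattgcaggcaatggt
RNF144A–ID2 region, last constituent, chr2:8519218-8519418: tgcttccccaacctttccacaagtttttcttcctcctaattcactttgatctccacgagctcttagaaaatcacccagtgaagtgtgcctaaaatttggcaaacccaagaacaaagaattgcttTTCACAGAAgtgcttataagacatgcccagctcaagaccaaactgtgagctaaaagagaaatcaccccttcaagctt
TUBA3C region, first constituent, chr13:18211985-18212185: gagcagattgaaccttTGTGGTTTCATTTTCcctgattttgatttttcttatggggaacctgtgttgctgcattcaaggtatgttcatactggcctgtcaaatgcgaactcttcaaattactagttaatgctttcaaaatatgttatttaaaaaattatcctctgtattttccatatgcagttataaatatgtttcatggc
TUBA3C region, last constituent, chr13:18212949-18213149: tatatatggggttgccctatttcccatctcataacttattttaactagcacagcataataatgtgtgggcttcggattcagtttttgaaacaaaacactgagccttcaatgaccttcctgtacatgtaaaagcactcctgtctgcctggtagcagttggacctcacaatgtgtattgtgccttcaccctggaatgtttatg
CWH43–DCUN1D4 region, first constituent, chr4:49096418-49096618: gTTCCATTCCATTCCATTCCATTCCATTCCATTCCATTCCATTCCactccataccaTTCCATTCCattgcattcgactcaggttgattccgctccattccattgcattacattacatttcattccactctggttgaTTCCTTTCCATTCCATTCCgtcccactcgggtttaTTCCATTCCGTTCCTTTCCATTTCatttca
CWH43–DCUN1D4 region, last constituent, chr4:49105204-49105404: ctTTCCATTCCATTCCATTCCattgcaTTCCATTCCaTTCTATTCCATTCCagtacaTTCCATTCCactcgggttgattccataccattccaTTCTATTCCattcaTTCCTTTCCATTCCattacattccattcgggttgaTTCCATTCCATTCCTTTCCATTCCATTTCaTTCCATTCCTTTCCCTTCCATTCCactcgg
The CAGCTG letters of the E2A type stood in capitals in the last constituent of the MAX–FUT8 and SLITRK5–GPC5 regions and at 2 places in the first constituent of the RNF144A–ID2 region. By contrast, both ends of the CWH43–DCUN1D4 region were runs of the 5-letter unit CATTC and its variants, and the many capitals there came from that unit.

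With respect to total signal, the medians of the super-enhancers away from genes and of the rest had overlapping intervals. Their signal lay between 10636 and 120038, and its median was 19140 (95% order-statistic interval 16832 to 20779), against a median of 19800 (19148 to 20357) in the regions that touched a gene, a ratio of 0.967. The signal is the authors' relative unit for a whole stitched region, and the interval covers only the finite number of regions, not error between libraries. All lay above the cutoff of 10617, with 15 of the 304 (4.93%) no more than 5% above it, compared with 104 of 2311 (4.50%). The top 10% of all regions by signal included 25 of the 304 (8.22%, exact 95% interval 5.39 to 11.9).

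They were, however, shorter and more concentrated. A region can touch no gene only if it fits in a gap between genes, so the rule itself favours short regions. The number of constituents rose with length (Spearman's rho 0.919, n = 304), so the rule bears on it as well. Only regions above the cutoff of 10617 are listed. A short region thus needs a high signal per bp to appear, and a region with few constituents a high signal per constituent. The median stitched length was 46.9 kb (42.5 to 49.9) against 63.2 kb (61.2 to 64.8), and the median number of constituents was 11 (10 to 13) against 17 (17 to 18). Signal per bp had a median of 0.452 (0.403 to 0.521) against 0.333 (0.326 to 0.342), a ratio of 1.36, and the regions inside gene bodies had 0.356 (0.337 to 0.380). By signal per bp, 63 of the 304 (20.7%, 16.3 to 25.7) were among the top 10% of the table. Among the top 10% by length there were 9 (2.96%). In sum they made up 8.47% of the bases covered by super-enhancers (15.8 of 187 Mb) and 7.87% of the constituents, while carrying 10.9% of the summed signal.

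**Figure D1:**
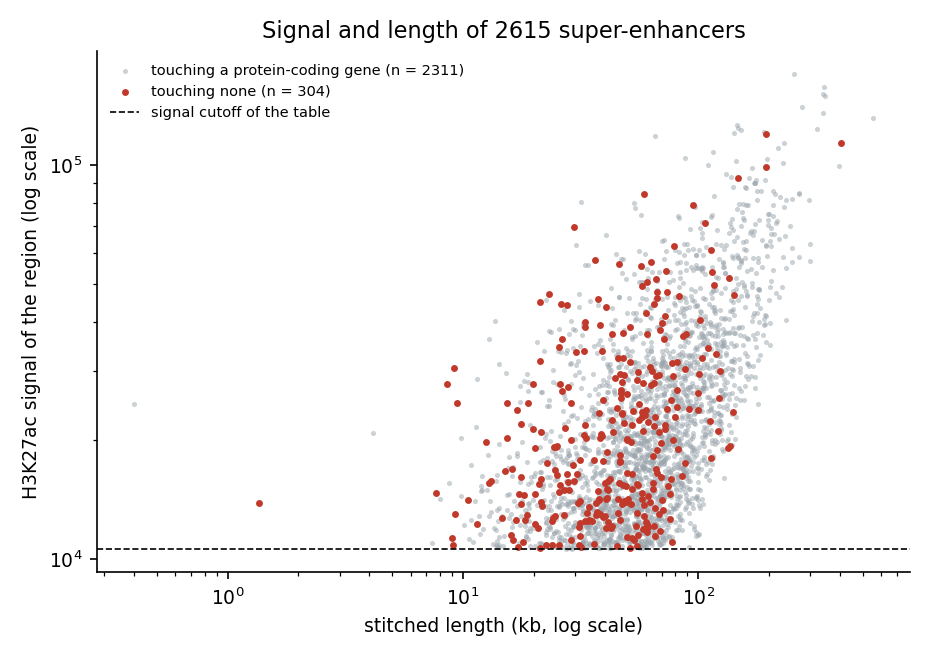
Each point is 1 super-enhancer, with its stitched length in kb on the horizontal log axis and its H3K27ac signal on the vertical log axis. The 304 regions touching no protein-coding gene (red) run from near the cutoff of 10617 (dashed line) to 120038 and lie mostly to the left of the 2311 others (grey), with a median length of 46.9 kb against 63.2 kb.

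Since signal per bp falls with length, the regions were also compared within 3 length classes that split the 2615 regions evenly. The share that touched no gene was 18.1% in the shortest class (158 regions), 12.1% in the middle class (105) and 4.70% in the longest class (41). Within the classes the median length was 29.8, 60.5 and 104 kb, against 33.7, 60.8 and 106 kb in the others. The median number of constituents was 7, 15 and 25, against 9, 17 and 29. The ratio of median signal per bp was then 1.21, 1.13 and 1.14, and in the middle and longest classes the intervals overlapped (0.282 to 0.403 against 0.278 to 0.300 in the middle class). The ratio for the signal per constituent, the signal of the whole region over its listed number of constituents, varied less with length. Over all lengths its median was 1820 (1667 to 2086) against 1226 (1193 to 1274), and 1292 (1218 to 1388) for regions inside gene bodies. Within the classes it was 2499, 1398 and 1340, against 1920, 1092 and 992 in the regions that touched a gene, with ratios of 1.30, 1.28 and 1.35. These intervals did not overlap in the shortest class (2206 to 2664 against 1811 to 1992) or the middle class (1191 to 1667 against 1035 to 1138), and overlapped slightly in the longest (1002 to 1537 against 952 to 1036).

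**Figure D2:**
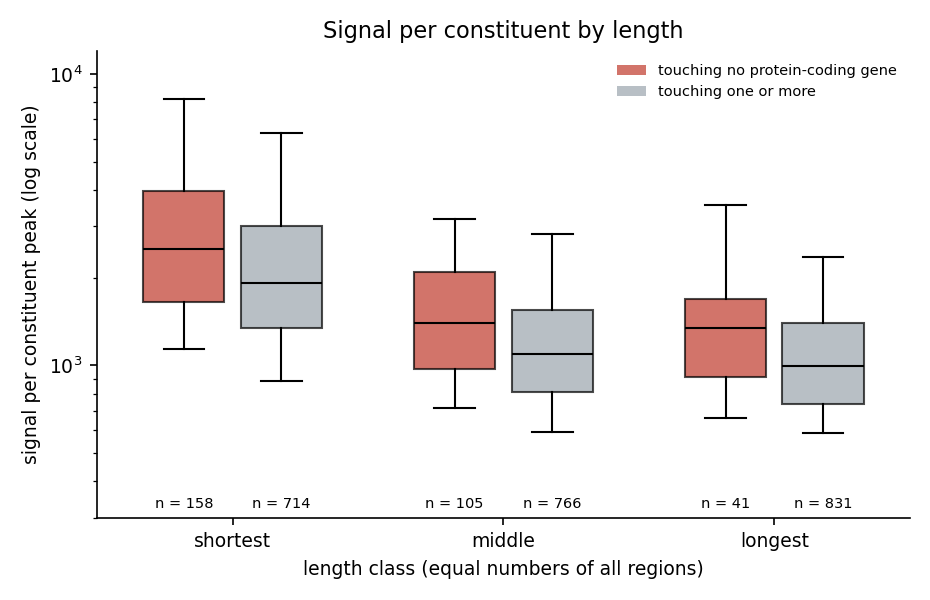
Signal per constituent peak (log axis) is shown by class of stitched length for regions touching no protein-coding gene (red) and the others (grey). It is the signal of the whole region over its listed number of constituents. Boxes span the quartiles with a line at the median, and whiskers the 5th to 95th percentiles of regions. The red median is the higher one in every class, by ratios of 1.30, 1.28 and 1.35.

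A property of the table bears on these ratios. The deposited summed length of constituents was exactly 1 window times their listed number in 260 of the 304 regions (85.5%) but in 1045 of the 2311 others (45.2%), so the summed length and the listed number disagreed more often in regions that touched a gene. Peaks within 2500 bp of a TSS, those of non-coding RNA not counted, were left out before stitching. The signal is that of the whole region, and how this bears on the signal per listed constituent near genes was not tested. Per constituent bp, which uses the summed length, the medians were 4.44 (4.10 to 5.08) and 2.90 (2.82 to 2.99), a ratio of 1.53. Sequence composition also differed. The GC content had a median of 43.9% against 45.9%, with 43.0% inside gene bodies, and the ratio of observed to expected CpG was 0.226 against 0.275, with 0.240 inside gene bodies. Their part in the signal differences was not tested. Across regions, signal followed length less closely (Spearman's rho 0.369, n = 304) than in the others (rho 0.572, n = 2311), and it had almost no relation to the distance from the nearest protein-coding TSS (rho -0.076). All these regions share the same libraries, and the signal is itself a sum over the length.

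The 10 regions with the highest signal stood far from the median and differed from each other mainly in extent. The strongest, rank 14 of all 2615, was chr14:65135256-65330377, between MAX, the dimerization partner of MYC, and FUT8, a fucosyltransferase. It had a signal of 120038 over 195 kb and 43 constituents, and 55.1% of its bases lay in lncRNA genes, among them LINC02324. The nearest protein-coding TSS, that of MAX, was 32.6 kb away. The third strongest, rank 26 at chr2:8325827-8519518, had 99170 over 194 kb and lay wholly within lncRNA genes, including LINC00299. Its nearest protein-coding gene was ID2, an inhibitor of E-proteins, at 159 kb. Rank 31 at chr5:173738256-173885414 had 92916 and ended 2.94 kb before CPEB4, an RNA-binding protein, the only one of these 10 within 10 kb of a protein-coding TSS.

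The second strongest was also the longest and the one with the most constituents. Rank 17 at chr13:90937828-91344242 spanned 406 kb with 167 constituents, and its signal of 113958 was spread thinly, at 0.280 per bp. Protein-coding neighbours were far on the left (SLITRK5, 3242 kb) and nearer on the right (GPC5, 54.4 kb), while LINC00380 and LINC00379 lay inside. The end printed above stood 3.44 kb before MIR17HG, the host transcript of the miR-17-92 cluster, which is amplified in B-cell lymphomas and whose microRNAs repress transcripts such as that of BCL2L11. The main arms of its 6 microRNAs, taken from RefSeq on GRCh38.p14, are shown because this cluster was the closest listed non-coding neighbour of any of the 304 regions without overlap, with the seed (bases 2 to 8) in capitals.
hsa-miR-17-5p: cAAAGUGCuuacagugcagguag
hsa-miR-20a-5p: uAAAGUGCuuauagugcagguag
hsa-miR-18a-5p: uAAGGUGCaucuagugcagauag
hsa-miR-19a-3p: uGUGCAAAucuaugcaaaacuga
hsa-miR-19b-3p: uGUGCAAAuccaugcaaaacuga
hsa-miR-92a-3p: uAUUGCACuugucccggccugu
miR-17-5p and miR-20a-5p shared a seed, as did miR-19a-3p and miR-19b-3p, whereas miR-18a-5p and miR-92a-3p each had their own. No level of these microRNAs was measured here, so the region's part in their transcription was not tested.

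The remaining strong regions were more compact. Rank 46 at chr12:92433739-92492541 held 84328 in 58.8 kb, or 1.43 per bp, in the gap between BTG1, an antiproliferative gene often mutated in lymphoma, and PLEKHG7. LINC02397 and a second lncRNA covered 99.2% of it. Rank 59 at chr14:49917436-50012874 had 79443 over LINC01588 and the microRNA gene MIR6076, and its closest protein-coding gene was ARF6, a small GTPase of membrane traffic, at 20.4 kb. Rank 89 at chr11:59259296-59289053 reached 69557 in only 29.8 kb with 8 constituents, which made it the fifth by signal per bp, at 2.34. It lay 46.4 kb from the TSS of MPEG1, the perforin-2 gene of macrophages and B cells. Rank 124 (62343, between SOX11 and CMPK2) and rank 131 (61036, between C1orf174 and AJAP1) had their nearest protein-coding TSS at 498 and 77.1 kb. Rank 83 (71229) lay in the immunoglobulin heavy chain locus and is described with that locus.

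Near the other end of the scale, the 5 weakest regions had signals of 10636 (between LINGO1 and TBC1D2B), 10669 (RCL1 and JAK2), 10696 (NPVF and NFE2L3), 10728 (BCL2A1 and ZFAND6) and 10766 (DMRTA1 and ELAVL2). Each was within 5% of the cutoff, where the spread between the libraries is unknown. The 5 longest regions were those of ranks 17, 14, 26 and 31 and that of rank 262, which spanned 142 kb between CD83 and JARID2. By number of constituents, rank 1014 (38, over LINC01483 between MAP2K6 and KCNJ16) and rank 1342 (36, over MIR3667HG between TAFA5 and BRD1) came next to ranks 17, 26 and 14, with rank 31 tied at 36. Ranks 1014 and 1342 thus combined many constituents with little signal per bp, at 0.167 and 0.142.

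Except for rank 89, described above with 8 constituents over 29.8 kb, the densest regions named were short ones with 2 constituents. The highest value, 10.2 per bp, was that of rank 1993 at chr13:18211885-18213249, a 1.37 kb region within the lncRNA gene FAM230C, 961 kb from the gene body of TUBA3C. Next came rank 674 at chr4:49096318-49105504 (3.32 per bp over 9.19 kb), rank 784 at chr16:21351857-21360408 (3.25 per bp, between CRYM and NPIPB3) and rank 936 at chr6:2860517-2869932 (2.65 per bp, over SERPINB9P1 between SERPINB1 and SERPINB9). Of the 304 regions, 6 (1.97%) had at most 2 constituents, against 11 of 2311 (0.476%).

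The repeated unit seen in the printed ends of the CWH43–DCUN1D4 region led to a count of the 5-letter unit GGAAT, on either strand, in every region. This unit builds the classical human satellite repeats, long tandem arrays near centromeres and on the short arms of some chromosomes. The median was 2.09 copies per kb in the 304 regions and 1.86 in the others. However, 5 of the 304 and none of the 2311 others had at least 10 copies per kb, and the highest value among the others was 3.27. The highest count, 108.6 per kb, was that of rank 674 on chromosome 4. Rank 2268 at chr2:89811488-89822942 had 72.9 and rank 938 at chr2:89836326-89851777 had 36.9, both in the gap between RPIA and AQP7B that also holds the kappa locus. Rank 173 at chr21:7916961-7963150 had 61.3 and rank 779 at chr17:26858657-26884446 had 58.8. Their signals were 30510, 12303, 24904, 56175 and 27873 in that order, and their signal per bp lay between 1.07 and 3.32. Reads of such arrays can align to many places, and how the authors' alignment treated them was not tested. Without these 5 regions the ratio of median signal per bp was 1.33.

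Some of these were also the most remote. Rank 173 lay 2558 kb from the TSS of TPTE, and rank 1916 at chr21:9315132-9356076 lay 1165 kb from it. The others among the 5 farthest from a protein-coding TSS were rank 2153 at chr14:106845323-106854557, at the end of the heavy chain locus (1319 kb from TMEM121), rank 1782 at chr5:19238474-19287974 (1288 kb, with the 3′ end of CDH18 at 183 kb) and rank 938 (1145 kb from RPIA). These values are exceptions. The nearest protein-coding TSS lay at a median of 52.5 kb (40.7 to 68.3) from the region, with 51 of the 304 (16.8%) within 10 kb, 150 (49.3%) within 50 kb, 101 (33.2%) beyond 100 kb and 16 beyond 500 kb. To the nearest protein-coding gene body the median was 38.4 kb (32.0 to 46.4).

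**Figure D3:**
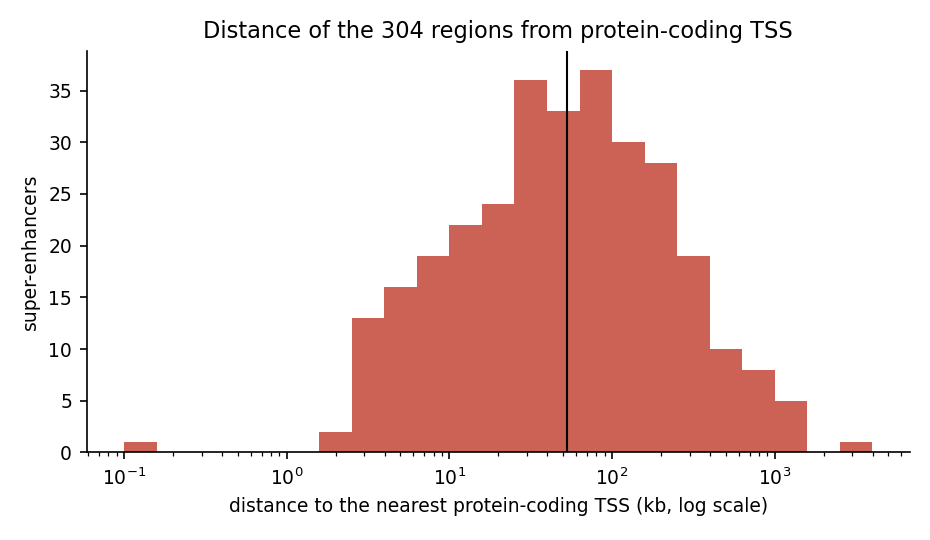
The histogram counts the 304 super-enhancers by the distance of their nearer edge from the closest protein-coding TSS (kb, log axis), with a vertical line at the median of 52.5 kb. Those within 50 kb number 150, and the highest value is 2558 kb.

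The regions filled few of the gaps between genes. Of 15605 gaps that separate protein-coding genes (Y left out), 241 (1.54%) held at least 1 of the 298 regions with a gene on both sides, and 6 regions had a gene on only 1 side. A gap is divergent where both flanking genes start at it, convergent where both end at it, and tandem where they point the same way. Divergent gaps held 119 of the 304 (39.1%, 33.6 to 44.9), while such gaps made up 23.9% of all gaps and 25.5% of their bases. Convergent gaps held 43 (14.1%, 10.4 to 18.6), with 21.9% of gaps and 22.3% of bases, and tandem gaps 136 (44.7%), with 54.3% and 52.2%. The nearest gene turned its TSS to the region in 186 of the 304 (61.2%, 55.5 to 66.7), compared with 1257 of the 2311 others (54.4%, 52.3 to 56.4), for which the nearest gene is taken outside those they touch. By length class the shares were 60.1% against 54.1%, 66.7% against 56.0% and, in the longest, 51.2% against 53.2%. Per region, the flanking gap had a median of 262 kb (228 to 327). Between the nearest genes that they did not touch, the others had 204 kb (197 to 213), and those inside gene bodies had 295 kb (272 to 316). Counted per gap, the median of all gaps was 19.5 kb.

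Several gaps held more than 1 super-enhancer. In 38 of the 241 gaps there were at least 2, together 95 of the 304 regions, with 26 gaps of 2, 7 of 3, 3 of 4 and 2 of 5. The summed signal was highest between RNF144A and ID2, at 195355 over 5 regions covering 25.9% of the gap. Measured from the TSS of ID2, they began at 16.4, 114, 159, 366 and 1034 kb, and the signal per bp was highest in the second (1.32) although rank 26, the third, had by far the highest signal. All 5 lay on the side upstream of ID2.

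The gap beside CXCR4, the chemokine receptor that holds germinal center B cells in the dark zone, held the other set of 5. From the TSS of CXCR4 these regions began at 13.4, 87.4, 136, 187 and 263 kb. Their signals were 50463, 38946, 13081, 14700 and 34586. The nearest and the farthest were thus both stronger than the 2 between 136 and 245 kb, and by signal per bp the farthest was the highest, at 1.34, with 0.832 in the nearest. The summed signal was 151776 over 211 kb, or 32.6% of the gap to THSD7B.

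Beside AKIRIN2, a nuclear factor needed for B-cell activation and proteasome import, 4 regions held a summed signal of 145009 and covered 45.4% of the gap to SPACA1. Signal per bp was 0.429, 1.40, 1.07 and 1.59 from the nearest to the farthest, the farthest beginning 222 kb from the TSS of AKIRIN2. Between BTG1 and PLEKHG7 3 regions began 199, 288 and 359 kb from the TSS of BTG1, with signals of 47783, 84328 and 14152. On chromosome 3, 3 regions lay between BCL6, the repressor that maintains germinal center B cells, and LPP, and covered 70.3% of the gap on the LPP side of ENSG00000285938, a protein-coding gene annotated between them. They began 13.2, 144 and 244 kb from the TSS of BCL6 and had signals of 18072, 45874 and 51682, with the middle one the densest at 1.22 per bp. The lncRNA gene LINC01991 lay 13.4 kb from the nearest of them, the farthest of the 3 from BCL6.

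**Figure D4:**
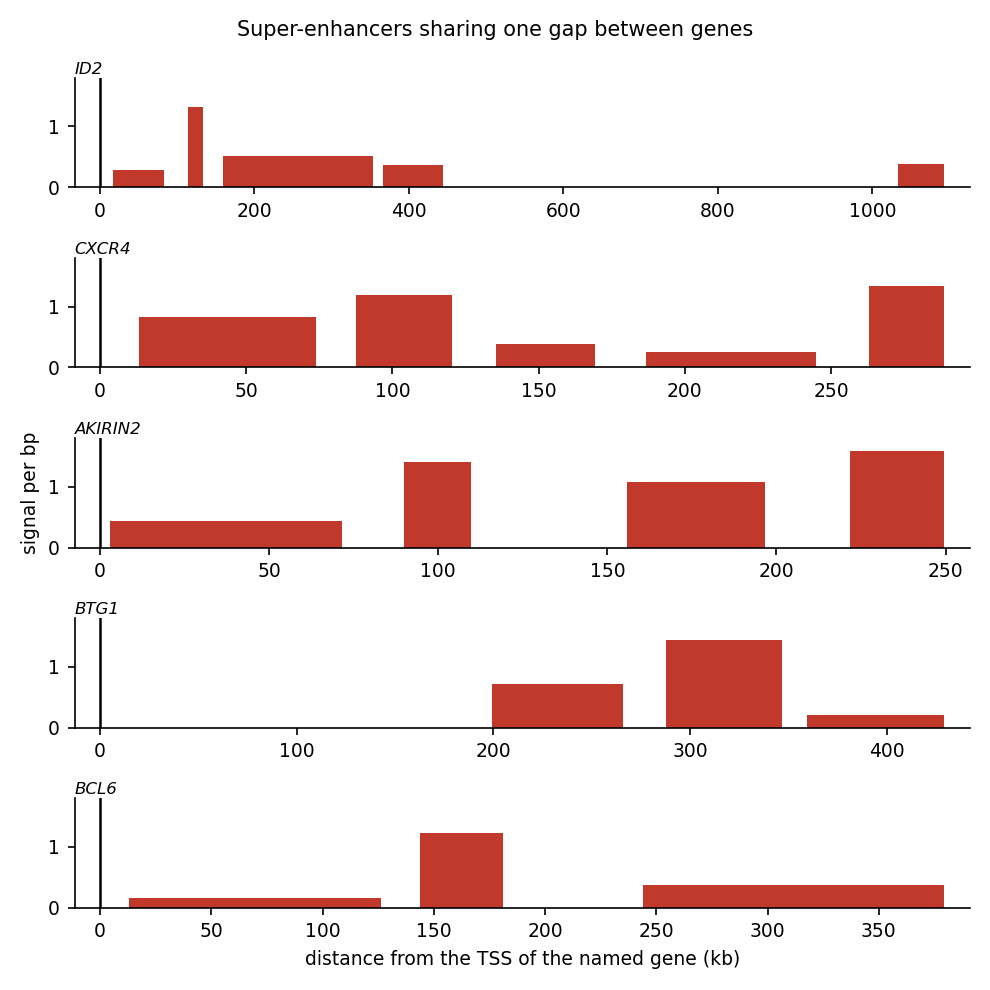
Each panel shows the super-enhancers of 1 gap, drawn to scale by their distance in kb from the TSS of the gene named (vertical line), with height giving the signal per bp. The densest region is not the nearest one in any of the 5 gaps, with 1.32 for ID2, 1.34 for CXCR4, 1.59 for AKIRIN2, 1.43 for BTG1 and 1.22 for BCL6.

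Other genes of the B-cell programme flanked single regions or pairs. Over 4 lists of B-cell genes, 29 of the 304 regions (9.54%, 6.48 to 13.4) had a listed gene as the nearest protein-coding gene on either side, compared with 52 of 2311 (2.25%) in the others. A region that touches a listed gene has it under it and not beside it, and counting both, 110 of the others (4.76%, 3.93 to 5.71) touched or flanked one. For 16 genes of other tissues the counts were 1 of 304 (0.329%, SOX2) and 6 of 2311 (0.260%). Of the 104 listed B-cell genes, 20 (19.2%) flanked at least 1 region, and these were 20 of 471 flanking genes (4.25%), whereas the lists make up 0.521% of all 19970 protein-coding genes. No such share was taken for the genes that flank the others. The lists were chosen with earlier results of these data known. Only 11 of the 304 regions (3.62%) had the listed gene within 50 kb, and this share is not given here for the others.

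Among 27 transcription factors of the B lineage, 8 flanked 10 regions (3.29% of the 304), and 14 flanked 21 of the others (0.909%). The strongest was rank 384 (39707) beside BCL11A, a repressor needed for early B-cell development, whose TSS lay 202 kb away. FOXO1, a factor of the dark zone programme that PI3K signalling restrains, had 3 regions in the gap to COG6 with signals of 30028, 25602 and 21506, all of them wholly within lncRNA genes including LINC00598. The gap between ETS1 and FLI1, both ETS factors, held regions of 17751 and 16712, the latter 8.66 kb before the TSS of ETS1. TCF3, which encodes the E2A proteins, had a compact region of 23861 in 17.0 kb that began 4.27 kb from its TSS. ETV6, IRF8 and ID3 flanked 1 region each, with 21955, 17870 and 15371.

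Of 19 germinal center and exit factors, 7 flanked 11 regions (3.62%), 5 of them those of CXCR4 above, and 6 flanked 8 of the others (0.346%). CXCR5, the receptor that guides B cells into follicles, had the strongest single region of all listed genes, rank 197 at chr11:118804120-118877002, with 54006 in 72.9 kb and 6.89 kb between its edge and the TSS. HES1, a Notch target, was 16.9 kb from a region of 29501. IRF4, needed for plasma cell differentiation, was 3.83 kb from a region of 14974. PRDM1, the master regulator of plasma cells, had 2 regions of 14599 and 12142 at 54.1 and 194 kb, both thin at 0.191 and 0.186 per bp. RGS1 and RGS13, regulators of G protein signalling, shared a region of 15772 in the 56.1 kb between them.

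Of 24 genes of the immune synapse and costimulation list, 11 flanked 14 of the others (0.606%) and 1, CD83, a marker of light zone B cells, flanked 3 of the 304 regions (0.987%), with 46912 (74.1 kb from the gene body), 14957 and 12355. From the list of 34 genes of B-cell receptor and survival signalling, 4 flanked 5 regions (1.64%), and 10 flanked 10 of the others (0.433%). The 4 were TNFAIP3, the A20 inhibitor of NF-kB, with 14203 and 13002 on either side, CD180 (13932, at 3.85 kb), PTPN1 (10929) and BCL2A1 (10728). The signals near this last list were thus all below the median of 19140. When the nearest 2 genes on each side were taken, 36 of the 304 regions (11.8%) and 80 of the others (3.46%) had a listed gene, and BCL6, CD58, SYK, RUNX3 and PLCG2 came in. As a check of the cell type, 6 of 8 B-cell markers had a super-enhancer of any kind within 50 kb, compared with 1 of 8 markers of T and myeloid cells (CSF1R).

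The antigen receptor loci accounted for 14 of the 304 regions (4.61%, 2.54 to 7.61), compared with 1 of 2311 others. Their segments are not of type protein_coding, so a region over them touches no gene by the rule unless it also reaches one. The contrast is thus largely set by the choice of regions. With the segments counted as genes, 290 regions remained. In B cells these loci are cut and rejoined, so positions on the reference may not be those in OCI-Ly7, and V segments are near copies of each other that can share reads. The heavy chain locus had the strongest, rank 83 at chr14:105723268-105830638, over IGHG1 and IGHG3, with 71229 in 107 kb. A second, over the segment IGHV3-20, had 16373. The lambda locus on chromosome 22 held 7, of which the strongest, over IGLV4-60, had 57549 in 36.6 kb, the next 37355 over a run of V segments from IGLV9-49 onward, and the other 5 between 11148 and 24047. The kappa locus held 2 regions over segments, with 16832 (IGKV3-20) and 16407 (IGKV4-1 and IGKV5-2).

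T-cell receptor loci appeared as well. At the alpha and delta locus, rank 769 at chr14:22495539-22543167 lay over a run of alpha J segments with 28110 in 47.6 kb, and rank 1730 over the delta D, J and constant segments with 15723. A region over 7 gamma V segments had 11533, or 1.09 times the cutoff. These signals lay on both sides of the median of 19140, and no receptor transcript was measured here.

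LncRNA genes were overlapped by 180 of the 304 regions (59.2%, 53.5 to 64.8), compared with 1086 of 2311 (47.0%, 44.9 to 49.1) in the others, and 286 distinct lncRNA genes were involved. The others were not uniform, with 58.2% (54.6 to 61.7) of regions spanning 1 protein-coding TSS and 29.4% (25.8 to 33.1) of those inside gene bodies. Exons were overlapped by 172 (56.6%) and 46.9%. The share grew with the length of the region, from 47.5% to 66.7% and 85.4% over the 3 length classes, and in the others from 37.7% to 45.6% and 56.3%. A larger gap appeared in the extent of the overlap, as 152 of the 304 (50%) had at least 10% of their bases in lncRNA genes, against 510 of 2311 (22.1%). The rule places the 304 wholly between protein-coding genes, so it bears on this difference. In contrast, a lncRNA TSS lay inside 133 of them (43.8%, 38.1 to 49.5), close to the 42.4% (40.4 to 44.5) in the others. LncRNA genes covered 35.4% of the bases of the 304 regions and 26.5% of all gaps between protein-coding genes. This annotation says where a transcript is known, not that it was transcribed in these cells.

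Other classes were rarer. Pseudogenes were overlapped by 81 of the 304 (26.6%) and 23.7% of the others, and microRNA genes by 9 (2.96%) and 4.85%. No annotated gene of any type was found in 81 (26.6%). Among 19 annotated non-coding genes of a list of B-cell and other well-known transcripts, only LINC00877 was overlapped, by rank 1017 on chromosome 3 with 23631 in 57.6 kb. MIR17HG was the next nearest, at 3.44 kb, followed by NEAT1, the scaffold of paraspeckles, at 5.38 kb from rank 476. That region (36260 in 26.5 kb, 1.37 per bp) lay between NEAT1 and MALAT1, which was 20.2 kb away on the other side.

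By chromosome, chromosome 2 had the most, 44 of its 196 super-enhancers (22.4%), and these included the sets at ID2 and CXCR4 and the kappa locus. Chromosome 19, the richest in genes at 25.3 per Mb, had the lowest share, with 3 of 86 (3.49%). Chromosome 22 had 20 of its 118 super-enhancers (16.9%), a lower share than chromosome 2. The 20 amounted to 51.1 per 100 Mb of sequence, the highest density of any chromosome. Super-enhancers of any kind were also dense there, with 118 in 39.2 Mb against 196 in 241 Mb on chromosome 2. Of the 20, 7 overlapped lambda segments.

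The 13 motifs were searched on both strands in the first and last constituent window of each region and in windows of the same size 2 kb outside its ends. The letters, in which N is any base, were GAGGAAGT for PU.1, CCGGAAGT for ETS, TGANTCA for AP-1, GGGANTTTC for NF-kB, ATGCAAAT for OCT, TGTGGTT for RUNX, GAAANNGAA for ISRE, GGAANNGAA for EICE, TATTTATAG for MEF2, CAGCTG for E2A, CCCNNGGGA for EBF, TTCNNNGAA for STAT or BCL6 and TGTTTAC for FOXO. The PU.1 and ETS letters share GGAAGT, and those of ISRE, EICE and STAT or BCL6 can overlap. A match describes letters and is not a bound site.

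E2A letters were the most frequent, in 24.8% (21.4 to 28.5) of 608 constituent windows and in 16.2% (13.3 to 19.3) of 606 windows outside. EBF letters were in 8.06% (6.02 to 10.5) against 4.46% (2.96 to 6.42) outside, and PU.1 letters in 4.11% against 2.15%, with intervals that overlapped for both. E2A and EBF specify the B lineage and PU.1 works with interferon regulatory factors in B cells. The regions that touched a gene had much the same, with 24.9% against 15.4%, 8.64% against 4.80% and 3.23% against 1.87%. NF-kB letters were the motif with the greatest relative difference between the kinds of region, in 17 of 608 windows (2.80%, 1.64 to 4.44) against 1.16% outside (0.466 to 2.37), compared with 59 of 4608 (1.28%, 0.976 to 1.65) and 1.30% in the others. This rests on 17 windows and is 1 of 13 motifs. EICE letters were less frequent inside than outside (10.2% against 11.6%), and so were ISRE (13.0% against 15.2%) and STAT or BCL6 letters (11.3% against 13.7%), all with overlapping intervals. In the others ISRE letters were likewise less frequent inside (11.8% against 13.1%), whereas EICE (10.1% against 8.68%) and STAT or BCL6 letters (10.2% against 9.81%) were more frequent inside. Constituent windows had a higher GC content, with a median of 48.6% against 43.4% outside, and its part in these shares was not tested.

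**Figure D5:**
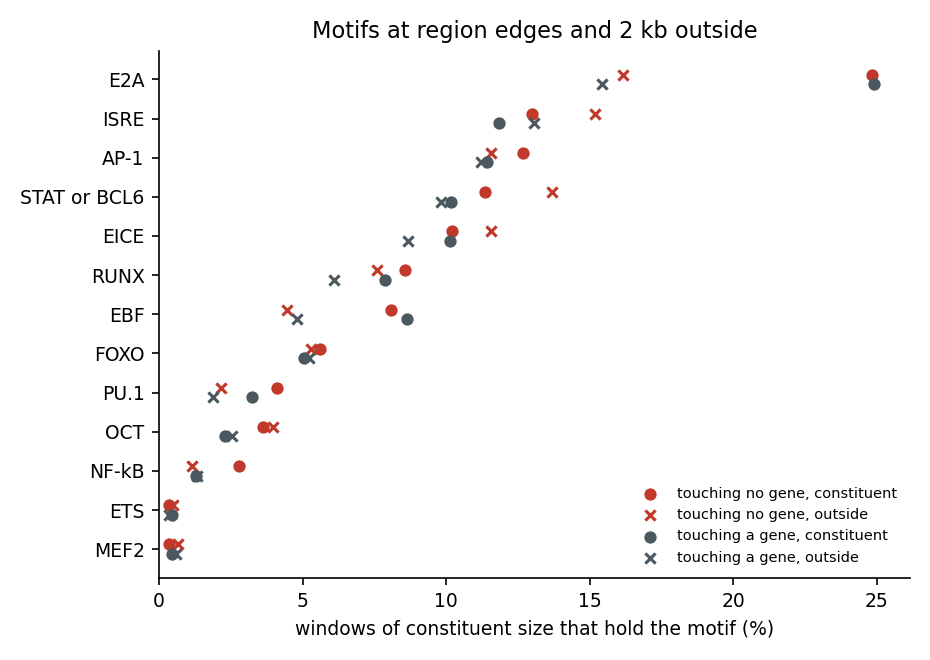
Each row is a motif and the horizontal axis gives the percentage of windows that hold it, in constituents at region edges (dots) and 2 kb outside (crosses), for regions touching no protein-coding gene (red, 608 and 606 windows) and the others (grey, 4608 each). Relative to the crosses, dots lie farthest to the right for E2A, EBF and PU.1 in both kinds of region, and for NF-kB only in red (2.80% against 1.16%). In red the intervals of dots and crosses overlapped for EBF, PU.1 and NF-kB.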

How the data were processed

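CUT&RUN libraries of OCI-Ly7 were processed by the authors with nf-core cutandrun on hg38, against an IgG library of the same genotype. SEACR served as peak caller and MACS2 placed the summits, and libraries were scaled by their promoter reads. The authors then ran ROSE on the combined H3K27ac WT reads, which stitched peaks within 12500 bp, left out those within 2500 bp of a TSS (TSS of non-coding RNA removed from that list), and ranked regions by signal. The deposited signal values are this ROSE signal of 1 pooled column of 2 libraries, in a relative unit, and only regions above the cutoff of 10617 were listed. Read counts per library were not given in the table, so depth behind a value is unknown. There were 0 unused columns of single samples. The submitters' processing notes also name DiffBind 3.6.1, which does not bear on this table.

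Regions were joined to GENCODE version 44 and hg38 in scripts that used scipy 1.17.1, pandas 2.3.3, numpy 2.4.6 and matplotlib 3.10.9 under Python 3.11.15, and overlap, distance and interval routines were tested on simulated data. Signal per bp was the signal over end minus start. Shares carry exact (Clopper-Pearson) 95% intervals and medians order-statistic 95% intervals, both for counting error over regions only, with neighbouring regions not independent. With 1 pooled column no test was made. Regions named were the 10 with the highest signal, the 5 each with the highest signal per bp, the lowest signal, the greatest length, the most constituents and the greatest distance from a protein-coding TSS, those over antigen receptor segments or listed non-coding genes, and the strongest beside a gene of each list. Others, namely all beside listed genes, those in the 5 gaps drawn, the region near NEAT1 and those rich in GGAAT, were named after their values were seen. The regions and gene lists were chosen with earlier results of these data known. Alternatives were other definitions of a gene, of overlap and of neighbours, 3 length classes, stronger regions only, and the removal of small regions and of chromosome X.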

Additional observations from a re-analysis of the deposited data

How the results depend on the processing

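There were 8 results and 72 alternative values. No ratio whose main interval excluded 1 changed direction, and 59 values stayed within the interval of the main value. The number of regions is a count without an interval, and a set range of 203 to 456 served instead. The exceptions were these. Among the 50% of regions with the highest signal the number of regions was 146, the ratio of median length 0.654 and that of constituents 0.583. The ratio of median signal was 1.07 and 1.14 in the shortest and middle length classes, and that of signal per bp was 1.13 and 1.14 in the middle and longest classes. The share overlapping a lncRNA gene was 47.5%, 66.7% and 85.4% over the 3 classes, 50% with at least 10% of bases and 43.8% with a lncRNA TSS inside. The share flanked by a listed B-cell gene was 3.62% within 50 kb. Leaving out regions rich in GGAAT, which was added after seeing the data, left all 8 within their intervals or, for the number of regions, its range. No paired analysis was possible because both libraries stand in 1 pooled column, which also leaves the error between the 2 libraries unknown. Regions below the cutoff were not analysed here, so no share refers to all enhancers.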
